A study of Mus musculus with 10 samples.

Results

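The genes described here are 10 genes that astrocytes raise when they become reactive, namely Gfap, Vim, Nes, Serpina3n, Cd44, Osmr, S1pr3, Steap4, Aspg and Cd109. They were taken by name from the probe annotation of the array. Each of the 10 had 1 probeset, and none of these probesets was shared with another gene. They stand among 19938 genes with a probeset of 1 symbol, and the tests ran over 23410 probesets with at least 1 symbol. RNA was taken from whole brain after perfusion, in 5 mice given Aldara (called Aldara mice here) and 5 given aqueous control cream (control mice), with 1 array per mouse. All were C57BL/6 females aged 6 to 8 weeks. Aldara is a commercial cream with 5% imiquimod, a small molecule that activates Toll-like receptor 7, and it inflames the skin in a way that resembles psoriasis. Both creams were applied as 80 mg on shaved back skin every 24 h for 5 applications, and brains were taken 24 h after the final one. Aldara has a vehicle that differs from the control cream and has been reported to be active itself, and in these arrays imiquimod and vehicle cannot be told apart. Values are log2 expression values normalised by the authors with RMA, which makes values of 1 probeset comparable between arrays but not values of different probesets. A gene is called higher or lower at an adjusted p under 0.05 from limma, with Benjamini-Hochberg adjustment over all probesets tested.

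Astrocytes are the glial cells that feed neurons, clear transmitter from synapses and contact blood vessels with their endfeet. When the brain is injured or inflamed they become reactive, a state in which they enlarge, rebuild their intermediate filament skeleton around GFAP and vimentin, and secrete protease inhibitors and other acute phase proteins. Cytokines that signal through gp130 and the transcription factor STAT3, among them oncostatin M, are well-known triggers of this state. Most of these genes are also used by other cells. Vim and Cd44 are active in leukocytes, fibroblasts and vessels, Nes marks neural stem cells and some endothelial cells, and Steap4 and Osmr are found in vessel walls.

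To show what lies in front of the genes described below, the bases upstream of their start sites were read from RefSeq on GRCm38.p6, where 9 of the 10 genes matched. The window ran from 250 bases before to 50 bases after the start site. On both strands it was searched for the STAT palindrome TTCNNNGAA, the AP-1 site TGANTCA and the ISRE core GAAANNGAAA, and no match overlapped another. The STAT palindrome occurred in 2 of the 9 windows, those of Gfap and Steap4, against 8.3% of all 32851 promoters in the table. The AP-1 site occurred in 1, that of Osmr, against 7.81% of all promoters, and the ISRE core in 0, against 3.44%. Shown are Gfap on chromosome 11 (chr11:102897194-102897450, minus strand), Steap4 on chromosome 5 (chr5:7960222-7960471, plus strand), Osmr on chromosome 15 (chr15:6874304-6874563, minus strand) and Serpina3n on chromosome 12 (chr12:104406458-104406707, plus strand). The first 3 hold a match, printed in capitals, and Serpina3n is shown because it had the largest increase of the 10 genes and holds none. Each run goes 5′ to 3′ from 250 bases before the start site to that site, or to the end of a match that passes it.
Gfap: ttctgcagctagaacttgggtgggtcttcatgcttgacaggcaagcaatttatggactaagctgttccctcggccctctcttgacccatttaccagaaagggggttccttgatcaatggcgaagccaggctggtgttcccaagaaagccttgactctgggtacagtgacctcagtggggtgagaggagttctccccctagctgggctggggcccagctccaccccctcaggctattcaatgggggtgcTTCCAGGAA
Steap4: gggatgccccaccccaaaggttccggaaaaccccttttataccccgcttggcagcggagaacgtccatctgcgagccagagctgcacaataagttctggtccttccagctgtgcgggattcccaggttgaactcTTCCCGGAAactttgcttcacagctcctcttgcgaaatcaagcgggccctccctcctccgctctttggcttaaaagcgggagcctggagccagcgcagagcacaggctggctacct
Osmr: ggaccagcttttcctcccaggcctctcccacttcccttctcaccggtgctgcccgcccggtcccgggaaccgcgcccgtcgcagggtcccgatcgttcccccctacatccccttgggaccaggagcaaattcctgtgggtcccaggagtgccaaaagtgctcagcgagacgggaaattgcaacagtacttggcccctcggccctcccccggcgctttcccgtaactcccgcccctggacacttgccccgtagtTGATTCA
Serpina3n: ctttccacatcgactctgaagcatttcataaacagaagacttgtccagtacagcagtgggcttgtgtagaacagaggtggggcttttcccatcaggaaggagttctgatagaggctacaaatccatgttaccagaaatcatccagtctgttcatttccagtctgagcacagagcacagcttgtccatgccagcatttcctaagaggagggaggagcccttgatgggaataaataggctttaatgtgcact
The match of Gfap begins at base -2 and that of Steap4 at base -116, and the AP-1 match of Osmr begins at base 4 after the start. A match is a run of letters and no measured binding site. Gfap and Steap4, which share the palindrome, lie near opposite ends of the order of differences given next. The upstream bases of Osmr held 66.0% G and C and 18 CpG pairs, and those of Serpina3n held 46.4% and 1, against medians of 52.4% and 6 over all promoters.

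Of the 10 reactive astrocyte genes, 9 were higher in Aldara brains. None was lower, and Steap4 did not pass the test. Over all probesets tested, 12.4% were called higher and 21% lower, or 33.4% in either direction. These shares stand beside the counts of the families below as well. The median log2 difference of the 10 genes was 0.81, against -0.04 over all probesets tested. In 8 of the 10 genes every Aldara mouse lay above every control mouse, which held for 10.5% of all probesets tested, and groups that did not overlap in either direction made up 25.8%. The increase was at least 2-fold for 4 genes (Serpina3n, Gfap, Vim and Osmr), against 1.59% of all probesets, and under 1.5-fold for 2 of those that rose, Aspg and Cd109. The 95% intervals of the log2 differences were set side by side, which is no test between genes. Of the 10 genes, 5 had a mean level below the median of all probesets tested. The interval of Serpina3n stood above all the others, and the interval of Gfap lay above that of Vim. Those of Vim and Osmr overlapped each other, as did those of Cd44 with Nes, Nes with S1pr3, and those of Cd109, Aspg and Steap4 with one another. Where each array was shifted so that the homeostatic astrocyte markers had the same mean, the median log2 difference of all probesets was 0.08 and 33.9% were called higher, so that small positive differences pass the test in that setting. The families described below then had 5 of 10 filament genes, 4 of 6 gp130 ligands, 6 of 6 gp130 signalling genes, 7 of 10 sphingosine 1-phosphate genes and 8 of 10 CD44 and hyaluronan genes called higher. In whole-brain RNA, a change in the number of cells of a type and a change in RNA per cell cannot be told apart.

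**Figure D1:**
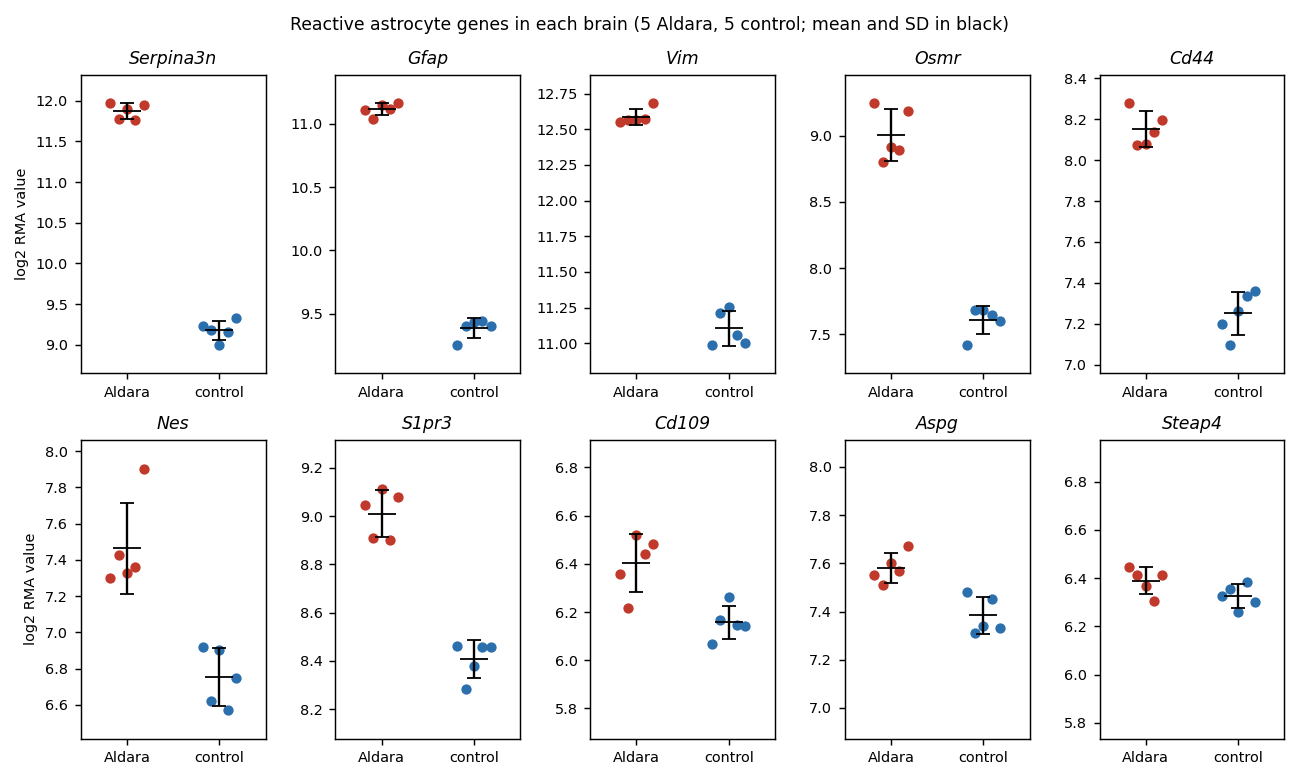
Log2 RMA values of the 10 reactive astrocyte genes in each of 5 Aldara (red) and 5 control (blue) brains, in order of the log2 difference, with the group mean and SD in black. Axes differ between genes, and the red and blue points overlap only for Cd109 and Steap4, while Nes has 1 Aldara brain at 7.90, apart from the others.

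Of 10 intermediate filament genes, the 3 that rose were Gfap, Vim and Nes. Gfap, the filament protein that defines astrocytes, had log2 values of 11.11, 11.04, 11.15, 11.12 and 11.16 in Aldara mice, against 9.26, 9.40, 9.44, 9.44 and 9.40 in control mice. The Aldara mice lay close together and well above all control mice. The log2 difference was 1.73 (standard error 0.04, adjusted p = 3.6e-11 from limma), or 3.31-fold with a 95% interval of 3.12 to 3.52. Vim encodes vimentin, which copolymerises with GFAP and is also the main filament of leukocytes, endothelium and fibroblasts. Its log2 values were 12.55, 12.57, 12.56, 12.57 and 12.68 in Aldara mice, against 10.99, 11.22, 11.25, 11.06 and 11.00 in control mice. The groups did not overlap, and the difference was 1.48 on the log2 scale (standard error 0.05), a 2.79-fold increase (95% interval 2.57 to 3.03, adjusted p = 1.5e-09 from limma).

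Nes encodes nestin, the filament protein of neural stem cells that reactive astrocytes take up again. Its log2 values were 7.30, 7.43, 7.33, 7.36 and 7.90 in Aldara mice, against 6.92, 6.62, 6.90, 6.57 and 6.75 in control mice. All Aldara mice were above all control mice, and Aldara replicate 5 stood well above its group. The log2 difference was 0.71 (standard error 0.11, adjusted p = 4.4e-04 from limma), or 1.64-fold (95% interval 1.38 to 1.94), and without Aldara replicate 5 it was 0.60 (standard error 0.07, adjusted p = 7.8e-05). Of the other 7 genes of the family, none was higher and 1 was lower, Ina, which encodes a neuronal filament subunit, with a log2 difference of -0.14 (standard error 0.03). That call was lost when each array was shifted by the homeostatic astrocyte markers. Nefl, Nefm and Nefh, the neurofilament subunits, had log2 differences of -0.09, -0.01 and -0.01. Synm, a filament protein that partners vimentin, had one of -0.07, and Des and Prph, the filaments of muscle and of peripheral neurons, had 0.09 and 0.03. None of these 6 passed the test. Without Aldara replicate 1, Nefl was lower too, which made 2 lower genes. With each array centred on its median 3 were lower, Ina, Nefl and Synm, and with quantile normalisation 2, Ina and Synm, while Nefl was also lower with an intensity trend and a robust prior. Of all probesets tested, 39.2% were lower with that centring and 25% with quantile normalisation, against 21% without either. Des and Prph were called higher with the arrays shifted by the homeostatic astrocyte markers.

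Serpina3n had the largest increase of the 10 genes. The gene encodes a secreted serine protease inhibitor and acute phase protein that inhibits granzyme B and leukocyte elastase. Its log2 values were 11.97, 11.77, 11.89, 11.76 and 11.95 in Aldara mice, against 9.23, 9.18, 9.00, 9.16 and 9.32 in control mice. The lowest Aldara mouse lay far above the highest control mouse. The log2 difference was 2.69 (standard error 0.06, adjusted p = 3.5e-11 from limma), which is 6.45-fold with a 95% interval of 5.88 to 7.06. By size of increase the probeset ranked 55 of 23410. Of the 11 genes listed for the Serpina3 cluster, 3 had a probeset of 1 symbol. The other 2, Serpina3a and Serpina3b, had log2 differences of -0.03 and 0.13 (standard errors 0.06 and 0.05), and neither passed the test, although Serpina3b was called higher in 6 of 19 alternatives, among them the fits without Aldara replicate 5 or control replicate 4 (adjusted p between 0.0018 and 0.14 over the alternatives). The members of this cluster are similar in sequence, and whether RNA of another member binds the Serpina3n probes was not tested.

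Among the surface receptors, Osmr rose most. It encodes the oncostatin M receptor, which pairs with gp130. Osmr had log2 values of 9.24, 8.80, 8.92, 8.89 and 9.18 in Aldara mice, against 7.42, 7.68, 7.69, 7.65 and 7.60 in control mice. The groups were apart, and Aldara replicates 1 and 5 were the highest. The difference was 1.40 on the log2 scale (standard error 0.09, adjusted p = 1.7e-07 from limma), a 2.64-fold increase (95% interval 2.32 to 3.00). Of the other 4 measured gp130 receptor genes, Il6ra, the interleukin-6 receptor chain, was higher, with a log2 difference of 0.56 (standard error 0.04), and Cntfr, the receptor chain for ciliary neurotrophic factor, was lower, at -0.15 (standard error 0.05). The call of Cntfr was lost in 8 of 20 alternatives, among them the setting of the median difference to 0 and the fits without Aldara replicate 1 or 5 or control replicate 1 or 5, with adjusted p between 0.0060 and 0.70. Il6st, which encodes gp130 itself, and Lifr, the receptor chain for leukaemia inhibitory factor, had log2 differences of 0.08 and -0.04 (both with a standard error of 0.03) and did not pass.

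The ligands of this receptor family had small differences on these arrays. Beside the counts of ligand and signalling genes here stand 12.4% higher and 21% lower over all probesets tested. Of 6 measured ligand genes 1 was higher, Clcf1, with a log2 difference of 0.19 (standard error 0.05), and 1 was lower, Ctf1, at -0.14 (standard error 0.05), a call lost in 13 of 19 alternatives, among them the fits without Aldara replicate 3 or 4 or without any 1 of the control mice (adjusted p between 0.0086 and 0.79). Osm, the ligand of the receptor made by Osmr, had a log2 difference of 0.08 (standard error 0.04, adjusted p = 0.13), and its log2 values of 5.94 to 6.07 in Aldara mice overlapped those of 5.87 to 6.04 in control mice. It was called higher in 3 of 19 alternatives, 1 of them the fit without control replicate 4 (adjusted p between 0.0054 and 0.39). Il6 had a log2 difference of -0.01 (standard error 0.03). Its mean log2 value was 5.02 in Aldara mice and 5.03 in control mice, with 4.73 the lowest value on any array. Whether the ligand probesets stand above background is not known, so their small differences do not show that the ligands were unchanged. Of 6 measured genes of gp130 signalling, 3 were higher. They were Stat3, the transcription factor of the pathway, with a log2 difference of 0.63 (standard error 0.04, adjusted p = 1.3e-07), Cebpd, a transcription factor of the acute phase, at 0.28 (standard error 0.06), and the kinase gene Jak2 at 0.13 (standard error 0.05), a call lost in 11 of 20 alternatives, among them the fits without any 1 mouse except Aldara replicate 4 and control replicates 2 and 5 (adjusted p between 0.0019 and 0.14). Socs3, the feedback inhibitor of STAT3, had a log2 difference of 0.15 (standard error 0.06, adjusted p = 0.062), and was called higher without Aldara replicate 4 or control replicate 2 and with 2 of the scalings. Jak1 had a difference of -0.0050 (standard error 0.03). Osm, Il6 and Socs3 were named after their values were seen.

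Cd44 encodes a receptor for hyaluronan that reactive astrocytes raise and that most leukocytes carry. It had log2 values of 8.28, 8.07, 8.08, 8.14 and 8.20 in Aldara mice, against 7.20, 7.10, 7.26, 7.34 and 7.36 in control mice. The groups did not overlap, and the log2 difference was 0.90 (standard error 0.05, adjusted p = 1.7e-07 from limma), or 1.87-fold (95% interval 1.72 to 2.03). Beside it, the 7 pan-leukocyte markers were all higher, with a median log2 difference of 2.27. Their mean log2 value was 10.12 to 10.44 in Aldara mice, against 7.98 to 8.12 in control mice. Their part in the increase of Cd44 was not tested. Of the 9 other measured genes of the CD44 and hyaluronan list, 3 were higher and 1 was lower. Over all probesets tested 12.4% were higher and 21% lower. Msn, which encodes moesin, a linker of CD44 to actin, had a log2 difference of 1.60 (standard error 0.05), and the related linker genes Ezr and Rdx had 0.18 and -0.00069 (standard errors 0.04 and 0.03), of which that of Ezr passed the test. Hmmr, a hyaluronan-binding protein of dividing cells, had 0.22 (standard error 0.04). Lyve1, the hyaluronan receptor of lymphatic vessels and some macrophages, was the gene called lower, at -0.15 (standard error 0.05), and this call was lost in 10 of 19 alternatives, among them the fits without Aldara replicate 1, 3 or 5 or control replicate 1, 2, 3 or 4 (adjusted p between 0.0075 and 0.75). The hyaluronan synthase genes Has1, Has2 and Has3 had log2 differences between -0.04 and 0.04 and did not pass.

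S1pr3 encodes a receptor for the lipid mediator sphingosine 1-phosphate. Its log2 values were 9.05, 8.91, 9.11, 8.90 and 9.08 in Aldara mice, against 8.46, 8.28, 8.38, 8.46 and 8.46 in control mice. All Aldara mice were above all control mice. The log2 difference was 0.60 (standard error 0.05, adjusted p = 3.1e-06 from limma), or 1.52-fold (95% interval 1.41 to 1.64). S1pr1, the receptor of the same family that is abundant in astrocytes and endothelium, went the other way, with a log2 difference of -0.20 (standard error 0.05, adjusted p = 0.0056). Its log2 values were 10.58 to 10.79 in Aldara mice, against 10.86 to 10.92 in control mice, and its call was lost with the arrays shifted by the homeostatic astrocyte markers. S1pr2, S1pr4 and S1pr5 had log2 differences of 0.15, -0.08 and 0.01 and did not pass, although S1pr2 was higher without Aldara replicate 5 (adjusted p between 0.012 and 0.24 over the alternatives) and S1pr4 lower with 2 of the scalings, as given next. Among the genes for its synthesis, export and breakdown, Sgpl1, the lyase that degrades the lipid, was higher, with a log2 difference of 0.53 (standard error 0.04). Sphk1, Sphk2, Sgpp1 and Spns2 had log2 differences between -0.09 and -0.01 and did not pass. With each array centred on its median, and likewise with quantile normalisation, 3 genes of the list were lower, S1pr1, S1pr4 and Sphk1. Over all probesets tested, 39.2% were lower with that centring and 25% with quantile normalisation, against 21% without either.

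The remaining 3 genes had small differences, and 2 of them, Cd109 and Aspg, passed the test. Cd109, a membrane-anchored protein that acts as a co-receptor of TGF-beta, had log2 values of 6.36, 6.22, 6.52, 6.44 and 6.48 in Aldara mice, against 6.07, 6.17, 6.26, 6.15 and 6.14 in control mice. Aldara replicate 2 lay below control replicate 3, so that the groups overlapped. The difference in Cd109 was 0.25 on the log2 scale (standard error 0.06, adjusted p = 0.0049 from limma), or 1.19-fold (95% interval 1.09 to 1.29). Whether the Cd109 probeset stands above background is not known. Of the 7 other genes of TGF-beta ligands and receptors, 5 were higher, against 12.4% of all probesets tested. The receptor gene Tgfbr1 had a log2 difference of 1.29 (standard error 0.05), Tgfb1 one of 1.20 (standard error 0.06), Eng, the endothelial co-receptor, one of 0.96 (standard error 0.04) and Tgfbr2 one of 0.81 (standard error 0.05). The co-receptor gene Tgfbr3 and the ligand gene Tgfb2 had log2 differences of -0.05 and -0.04 and did not pass.

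Aspg, which encodes an enzyme that cleaves asparagine, had log2 values of 7.55, 7.51, 7.60, 7.57 and 7.67 in Aldara mice, against 7.48, 7.31, 7.34, 7.45 and 7.33 in control mice. The groups were apart by a narrow gap. The difference in Aspg was 0.20 on the log2 scale (standard error 0.04, adjusted p = 0.0036 from limma), or 1.15-fold (95% interval 1.08 to 1.22). Of the other genes of asparagine metabolism, the lysosomal enzyme gene Aga had a log2 difference of 0.38 (standard error 0.05), the synthetase gene Asns one of 0.08 (standard error 0.03), a call lost in 12 of 20 alternatives, among them the fits without any 1 mouse except Aldara replicate 5 and control replicate 1 (adjusted p between 0.00018 and 0.31), and Asrgl1, a cytosolic asparaginase, one of -0.32 (standard error 0.04).

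Steap4, a metalloreductase of the plasma membrane that is induced in inflammation, had log2 values of 6.45, 6.41, 6.37, 6.31 and 6.41 in Aldara mice, against 6.33, 6.36, 6.26, 6.39 and 6.30 in control mice. The groups overlapped, and the log2 difference was 0.06 (standard error 0.03, 95% interval -0.01 to 0.14, adjusted p = 0.18 from limma). The upper bound is a 1.10-fold increase. Whether the probeset stands above background is not known. Steap4 was called higher with the median difference over all probesets at 0 (log2 difference 0.11, adjusted p = 0.039) and with the arrays shifted by the homeostatic astrocyte markers (0.19, adjusted p = 0.0066). Of the other STEAP genes, Steap2 was lower, at -0.18 (standard error 0.04), and Steap3 was higher, at 0.11 (standard error 0.03), a call lost in 8 of 19 alternatives, among them the fits without Aldara replicate 1, 4 or 5 or control replicate 1 or 3 (adjusted p between 0.00058 and 0.18). That of Steap2 was lost with the arrays shifted by the homeostatic astrocyte markers, and Steap1, at -0.08 (standard error 0.06), did not pass.

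**Figure D2:**
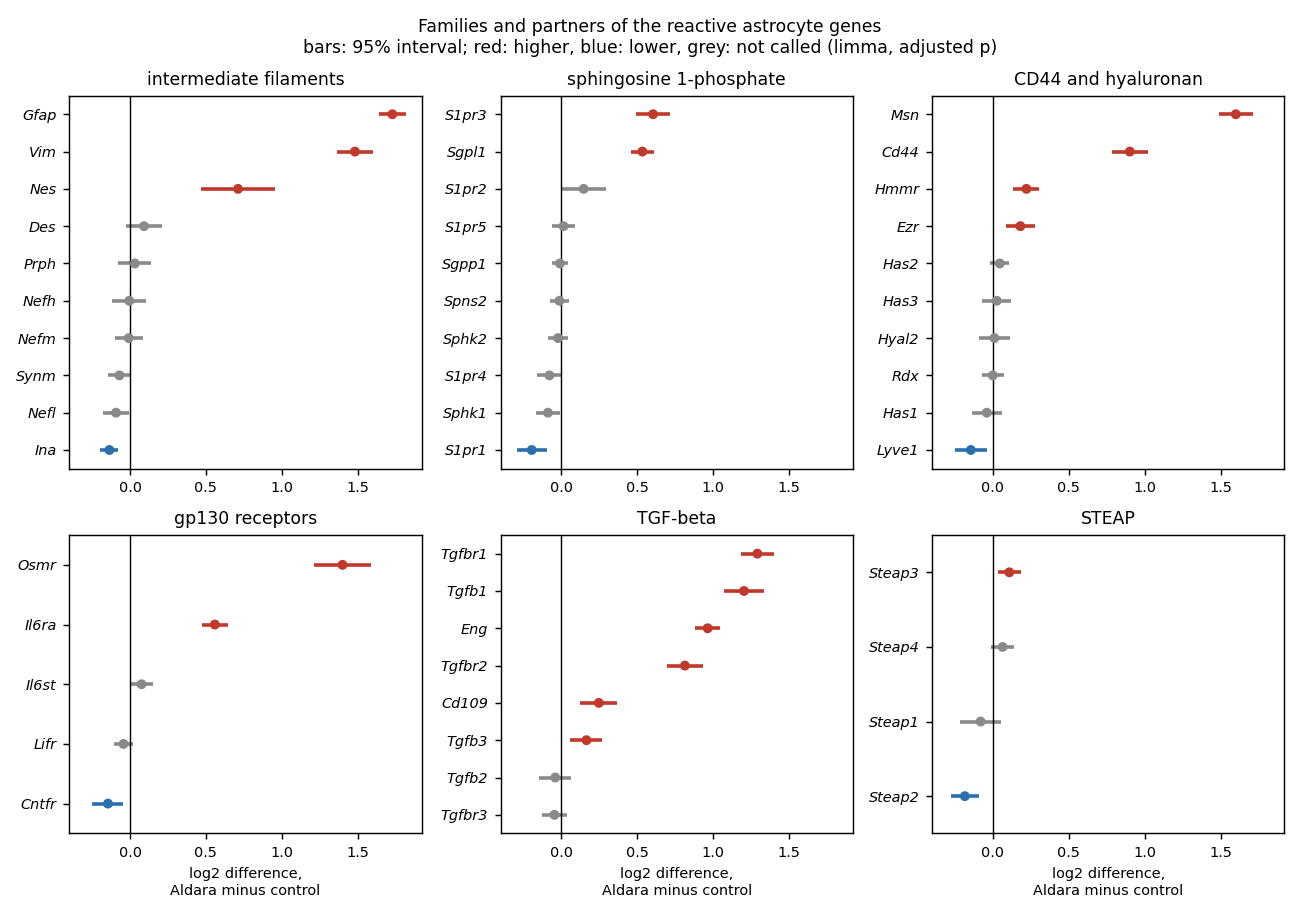
Log2 differences (Aldara minus control, with 95% intervals) of the families and partners of the reactive astrocyte genes, in red where higher, blue where lower and grey where not called by limma. Gfap, Vim and Nes stand apart from the other filament genes, and S1pr3 and Sgpl1 apart from the other sphingosine 1-phosphate genes.

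The size of the increase was compared between mice. The mean log2 difference from control mice over the 10 genes was 1.03, 0.92, 1.00, 0.95 and 1.12 in Aldara replicates 1 to 5. Aldara replicate 1 was the highest of its group for 4 genes (Serpina3n, Cd44, Osmr and Steap4), Aldara replicate 5 for 4 (Gfap, Vim, Nes and Aspg) and Aldara replicate 3 for 2 (S1pr3 and Cd109). Aldara replicate 2 was the lowest for 5 genes, Aldara replicate 4 for 3 and Aldara replicate 1 for 2. The 9 calls held in each fit that left out 1 mouse.

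**Figure D3:**
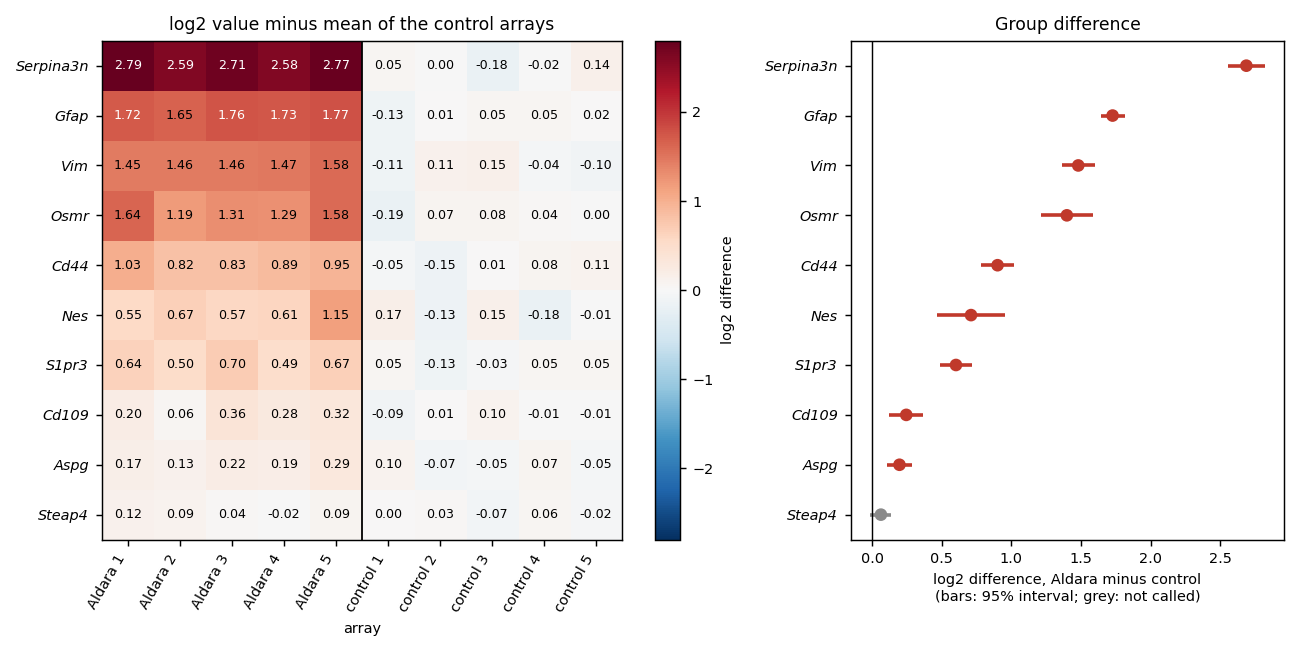
Left, log2 value of each reactive astrocyte gene in each array minus the mean of the 5 control arrays. Right, the group difference (Aldara minus control) with its 95% interval, in red where called by limma and in grey where not. Serpina3n reads 2.58 to 2.79 in the 5 Aldara arrays, and Nes reads 1.15 in Aldara replicate 5.

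Lists of reactive astrocyte genes from earlier work in mice divide them into genes shared by many kinds of injury (pan-reactive), genes raised after systemic endotoxin (A1) and genes raised after ischaemia (A2). The pan-reactive list of 13 genes holds 8 of the genes described above. Its other 5 genes were all higher in Aldara mice. Over all probesets tested 12.4% were higher and 21% lower, which stands beside the A1 and A2 counts below as well. Which cells the RNA of these 5 genes came from was not tested. Lcn2, which encodes the iron-scavenging acute phase protein lipocalin-2, had log2 values of 8.59, 8.51, 8.63, 8.29 and 8.55 in Aldara mice, against 6.33, 6.40, 6.30, 6.54 and 6.33 in control mice, and a log2 difference of 2.13 (standard error 0.06, adjusted p = 2.9e-10 from limma). Cxcl10, an interferon-induced chemokine, had a log2 difference of 2.08 (standard error 0.25), and Timp1, a metalloproteinase inhibitor, one of 1.31 (standard error 0.12). Cp, the copper oxidase ceruloplasmin, and Hspb1, a small heat shock protein whose groups overlapped, had 0.80 and 0.46 (standard errors 0.08 and 0.09). Aldara replicate 5 was the highest of its group for Cxcl10, Timp1, Cp and Hspb1, and its mean difference over the whole list was 1.43, with 1.08 to 1.23 for Aldara replicates 1 to 4.

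Of 7 measured A1 genes, 4 were higher and 1 was lower, with a median log2 difference of 1.26. Iigp1, an interferon-induced GTPase, had a log2 difference of 2.24 (standard error 0.24), Psmb8, a subunit of the immunoproteasome, one of 2.07 (standard error 0.16), Serping1, the inhibitor of complement C1, one of 1.76 (standard error 0.09) and Srgn, a proteoglycan of leukocyte granules, one of 1.26 (standard error 0.07). These genes are also induced by interferon or used by leukocytes outside astrocytes. Aldara replicate 5 again had the highest mean over the list, 1.41 against 0.88 to 1.05 in the others. The lower gene was Amigo2, an adhesion protein, at -0.17 (standard error 0.05), a call lost with the median difference set to 0, with the arrays shifted by the homeostatic astrocyte markers, and without Aldara replicate 4 or control replicate 5, with adjusted p between 0.0055 and 0.51. Fkbp5 and Fbln5 had log2 differences of 0.12 and 0.11 (standard errors 0.04 and 0.05) and did not pass. Fkbp5 was called higher in 7 of 20 alternatives and Fbln5 in 4 of 19. Both were called with the median difference set to 0 and with the arrays shifted by the homeostatic astrocyte markers. Both were also called without Aldara replicate 2 or control replicate 3. Fkbp5 was further called among brighter probesets only, with array weights and without Aldara replicate 3. A further 4 A1 genes were measured only by probesets shared with related genes and were not counted. Their log2 differences ran between 0.43 for the probeset of Ugt1a1 with its relatives and 3.63 for 1 of the probesets shared by H2-D1 and H2-K1.

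Of 12 A2 genes, 8 were higher and none was lower. The median log2 difference was 0.27, and apart from Cd109 the counts were 7 of 11. Emp1, an epithelial membrane protein, had a log2 difference of 1.18 (standard error 0.11), Tgm1, a transglutaminase, one of 1.12 (standard error 0.08), Tm4sf1, a tetraspanin-like protein of endothelium, one of 0.64 (standard error 0.05) and S100a10, a partner of annexin A2, one of 0.52 (standard error 0.07). Sphk1 and B3gnt5 had log2 differences of -0.09 and 0.13 and did not pass. With each array centred on its median 3 A2 genes were lower, and with quantile normalisation 1, against 39.2% and 25% of all probesets tested. The A1 and A2 lists were not tested against each other.

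Genes that mark astrocytes at rest went mostly the other way by small amounts. Of 16 homeostatic astrocyte markers, 3 were higher and 10 were lower (5 lower with the arrays shifted by the mean of these markers), with a median log2 difference of -0.17. Over all probesets tested 12.4% were higher and 21% lower, and among brighter probesets only 17.6% and 35.1%. The 5 neuron markers given below were all lower too, so small decreases were not limited to astrocyte markers. Slc1a2, the main glutamate transporter, had log2 values of 12.14, 12.15, 12.21, 12.23 and 12.08 in Aldara mice, against 12.72, 12.71, 12.68, 12.80 and 12.77 in control mice. The groups were apart, and the log2 difference was -0.57 (standard error 0.04, adjusted p = 2.1e-07 from limma). S100b, a calcium-binding protein, was lower too, at -0.43 (standard error 0.05). Aqp4, the water channel of astrocyte endfeet, and Aldh1l1, a folate enzyme used to identify astrocytes, were higher, both at 0.36 (standard errors 0.03 and 0.07). Aldara replicate 5 was the highest of its group for both, at log2 values of 11.11 and 9.95. Atp1b2 and Gjb6 had log2 differences of -0.04 and -0.13 and did not pass. Atp1b2 was called lower in 1 of 20 alternatives, with each array centred on its median, and Gjb6 in 6 of 20. For Gjb6 these included the fits without Aldara replicate 4 or control replicate 4. The others were median centring, quantile normalisation, brighter probesets only, and an intensity trend with a robust prior. All 16 markers were measured in every brain, with a mean log2 value of 11.07 to 11.16 in Aldara mice, against 11.21 to 11.26 in control mice. Relative to that mean, the log2 difference was 2.81 (standard error 0.06) for Serpina3n, 1.85 (standard error 0.04) for Gfap, 0.83 (standard error 0.11) for Nes and 0.32 (standard error 0.04) for Aspg.

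**Figure D4:**
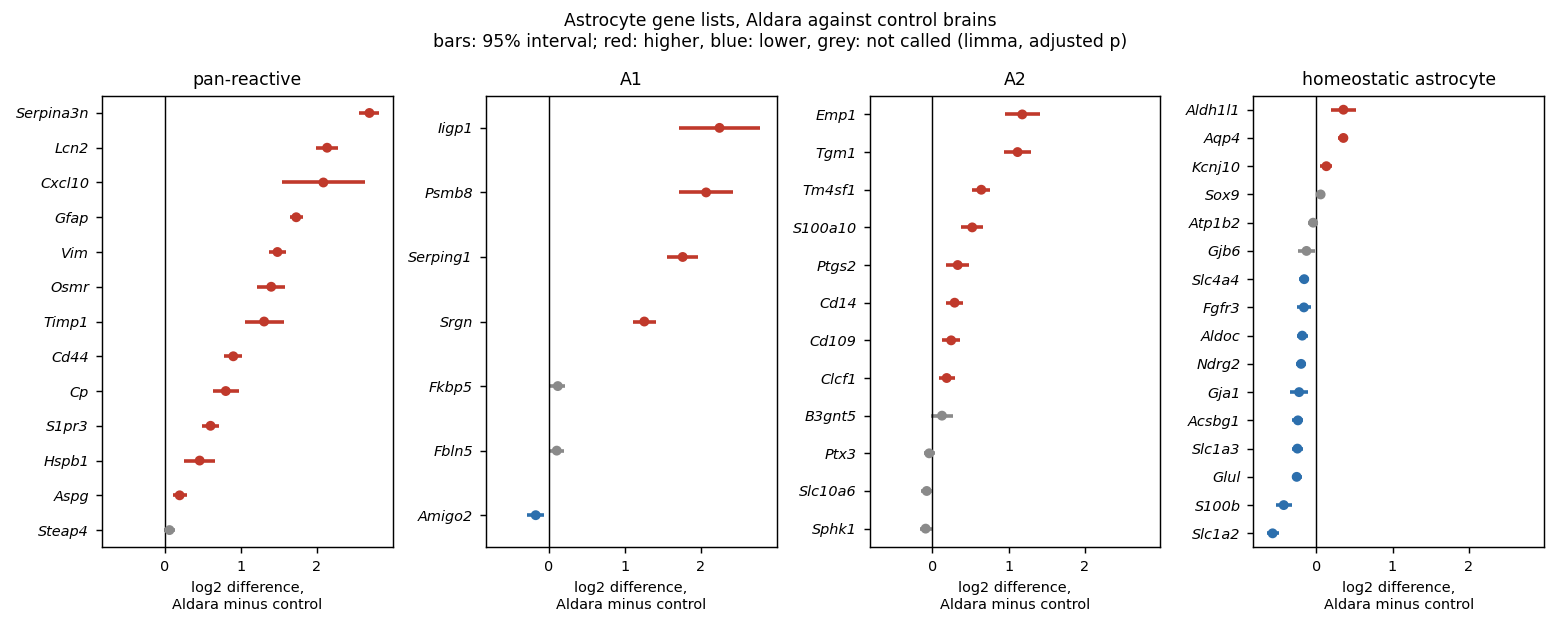
Log2 differences (Aldara minus control, with 95% intervals) of the pan-reactive, A1, A2 and homeostatic astrocyte lists, in red where higher, blue where lower and grey where not called by limma. Of the pan-reactive genes 12 of 13 are red, while 10 of 16 homeostatic markers are blue.

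Markers of other cell types were counted in the same way, against 12.4% higher and 21% lower over all probesets tested, and the lists differed. Of 11 measured endothelial markers, 9 were higher, with a median log2 difference of 0.61, among them Pecam1 at 0.96 (standard error 0.05) and Cdh5, the cadherin of endothelial junctions, at 0.88 (standard error 0.07). Their mean log2 value was 9.51 to 9.63 in Aldara mice, against 9.03 to 9.13 in control mice, with a mean difference of 0.45 to 0.56 in each Aldara mouse. In Aldara replicate 5, which had the highest Nes, the endothelial markers were divided. That mouse was the highest of its group for 3 of the 11, Cdh5 (1.15 above the control mean, with 0.71 to 0.87 in Aldara replicates 1 to 4), Emcn (0.93, with 0.57 to 0.80) and Pecam1 (1.06, with 0.83 to 1.05), and the lowest for 5, Cldn5, Flt1, Tie1, Slco1a4 and Slc2a1. Of 10 mural cell markers, 5 were higher, with a median log2 difference of 0.12, such as the contractile actin gene Acta2 at 0.29 (standard error 0.05). That count was 3 with each array centred on its median and 9 with the arrays shifted by the homeostatic astrocyte markers. Abcc9, 1 of the 5, lost its call in 12 of 19 alternatives. These included each fit without 1 Aldara mouse and those without control replicate 2, 3 or 4. The list of neural progenitors and immature neurons was split. The proliferation genes Mki67 and Top2a were higher, at 1.61 and 1.62 (standard errors 0.07 and 0.09), and the immature neuron gene Dcx was lower, at -0.34 (standard error 0.09), as were Sox11 and Pax6, with these 3 lower calls lost when the arrays were shifted by the homeostatic astrocyte markers. Eomes did not pass. Mki67 and Top2a, the only genes of this list called higher, are not particular to neural cells, and which cells their RNA came from was not tested. Of 5 measured microglia markers 4 were higher, of 7 monocyte and macrophage markers 4 were higher and 1 lower, and of 6 fibroblast markers 3 were higher. The median log2 differences of these lists were 0.84, 0.87 and 0.24 in that order. The differences ran from 0.02 to 1.64 for microglia, from -0.20 to 4.04 for monocytes and macrophages and from -0.13 to 0.86 for fibroblasts. Of 6 ependymal markers 1 was higher, the chemerin gene Rarres2, at 0.63 (standard error 0.08), and the median log2 difference of that list was -0.03. Of 5 T cell markers, 2 were higher and 1 was lower, with a median log2 difference of 0.11. The count of lower markers was 1 for fibroblasts without Aldara replicate 1 or control replicate 1 or 2, 1 for ependymal cells without control replicate 3 or 5, and 2 for monocytes and macrophages without Aldara replicate 4. The part of these cell types in the increases of Vim, Cd44, Nes, Osmr and Serpina3n was not tested.

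Markers of neurons and oligodendrocytes had small differences. Over all probesets tested 12.4% were higher and 21% lower, and among brighter probesets only, 17.6% and 35.1%. The 5 neuron markers had a mean log2 value of 11.91 to 11.94 in Aldara mice, against 12.03 to 12.07 in control mice, and all 5 were lower, by 0.08 to 0.19 on the log2 scale (3 lower without control replicate 1, 2 with the median difference set to 0, and none with the arrays shifted by the homeostatic astrocyte markers). Among them, Map2 lost its call in 9 of 20 alternatives. These included the fits without Aldara replicate 1, 2 or 4 or control replicate 1, 2 or 5. The 4 measured oligodendrocyte markers had a mean log2 value of 11.27 to 11.37 in Aldara mice, against 11.32 to 11.38 in control mice. Of these 4, Mag, an adhesion protein of myelin, was higher, with a log2 difference of 0.11, and Mbp, the myelin basic protein, was lower, at -0.21. The call of Mag was lost with each array centred on its median, and that of Mbp with the arrays shifted by the homeostatic astrocyte markers. Without Aldara replicate 1, and likewise with each array centred on its median, 2 oligodendrocyte markers were lower. Of all probesets tested, 18.3% were lower without Aldara replicate 1 and 39.2% with that centring. Arrays of 1 group correlated at 0.995 to 0.999 across probesets among Aldara mice and at 0.998 to 0.999 among control mice, and arrays of different groups at 0.980 to 0.988.

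**Figure D5:**
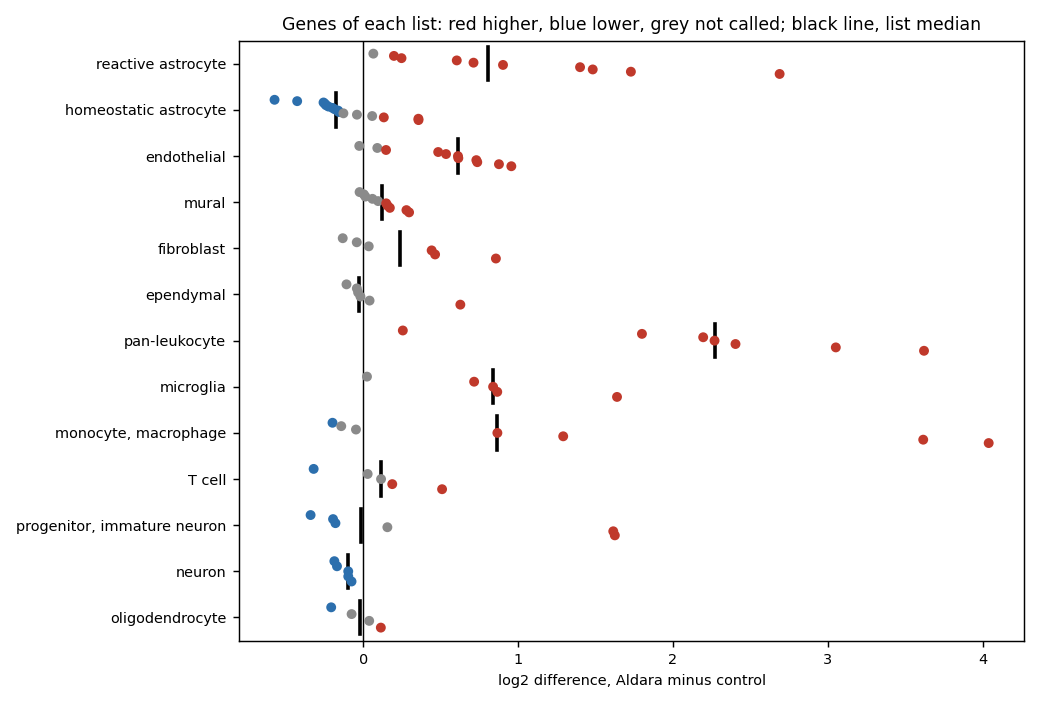
Log2 differences (Aldara minus control) of the reactive astrocyte genes and of marker genes of cell types, 1 point per gene, in red where higher, blue where lower and grey where not called by limma, with the list median as a black line. The medians are 0.81 for the reactive astrocyte genes, -0.17 for the homeostatic astrocyte markers, 0.61 for endothelial and 2.27 for pan-leukocyte markers.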

How the data were processed

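RNA from 10 perfused brains was hybridised to Affymetrix GeneChip Mouse Gene 1.0 ST arrays. The authors deposited log2 values per probeset, computed by RMA in GeneSpring GX, which corrects background, brings all arrays to 1 distribution and combines probes into a probeset value. Forcing 1 distribution on all arrays can shift genes that did not change when many others rise. For the library file and the software version, the sources used here give nothing. Of 28856 probesets, 21789 had 1 symbol, 1621 several and 5446 none. For genes with more than 1 probeset, that of the highest mean over all arrays was taken.

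Aldara and control arrays were fitted in limma 3.58.1 under R 4.3.3 (lmFit, then eBayes), without covariates, and p-values were adjusted over 23410 probesets. The methods' t-test, other scalings, filters, variance models, array weights, the replicate block and leaving out each array were alternatives. Groups follow the sample titles, which call the samples biological replicates. The test was checked on simulated data. The genes, lists and alternatives were chosen with earlier results of these data known. All 10 genes are named, and of each other list mainly up to 4 that passed with the largest differences and up to 2 brightest that did not pass; a few others, named to complete a count or a family, were chosen after their values were seen. Precision is limited by the 5 arrays of each group. Promoter sequences are from RefSeq (GRCm38.p6).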

Additional observations from a re-analysis of the deposited data

Results flagged for a closer look

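In 20 groups of 5 mice (10 genes in 2 groups), 3 held a mouse whose gap to its nearest neighbour was above 0.71 of the range of the group, and chance alone flags about 1 in 20 of such groups. Aldara replicate 5 had a log2 value of Nes of 7.90, with 7.30 to 7.43 in Aldara replicates 1 to 4. The same mouse had a log2 value of Vim of 12.68, against 12.55 to 12.57 in the others. Control replicate 1 had a log2 value of Gfap of 9.26, against 9.40 to 9.44 in the other control mice. All 3 genes were called without the mouse concerned.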

How the results depend on the processing

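The count of 9 genes called higher and 0 lower held for each scaling, variance model, probeset set and test tried, except that 10 were higher with the median difference set to 0 and with the arrays shifted by the homeostatic astrocyte markers, and 5 were higher among brighter probesets only, where the other 5 genes lay below the median level and were not tested. Leaving out each mouse gave 9 to 9. With the replicate number as a block the count was 9 as well and none of the 10 genes changed its call, while Cntfr and Asns lost theirs, S1pr2 was called higher, and 3 neuron markers and 1 ependymal marker were lower; over all probesets 2701 were higher and 4421 lower. Same-numbered mice deviated together in only 2 of 5 pairs at a correlation above 0.1 (-0.11 to 0.25), and 2 of 5 Aldara arrays correlated best with their own number, so the numbers were not taken as pairs. Over all alternatives, the log2 difference ran from 2.64 to 2.81 for Serpina3n, from 1.69 to 1.85 for Gfap, from 0.60 to 0.83 for Nes and from 0.02 to 0.19 for Steap4. Among brighter probesets only, the pan-reactive list had 7 higher and the A2 list 5. The A2 list had 3 lower with each array centred on its median and 1 with quantile normalisation. The A1 list had 0 lower with the median difference set to 0 and with the arrays shifted by the homeostatic astrocyte markers, and 0 to 1 when mice were left out. With that shift, 5 homeostatic markers were lower, a setting that fixes their mean at no difference by construction. Leaving out mice changed no other count of these lists by more than 1.5 times. For the reactive astrocyte genes, the alternatives that changed a call of a single gene changed that of Steap4. Over all probesets, 2901 were higher and 4926 lower, against 2320 and 9166 with each array centred on its median, 3833 and 2760 with the median difference set to 0, 7926 and 748 with the shift by astrocyte markers, and 2062 and 4111 among brighter probesets. Each of the 10 genes had 1 probeset, so using every probeset of a gene gave no separate value. Scanner values were not used here, so background correction could not be repeated.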
